A study of Mus musculus with 4 samples.

Results

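The transfer RNAs described here are those for isoleucine, phenylalanine, elongator methionine and tryptophan, with the valine tRNAs that read through the anticodons AAC and TAC. They were taken by name from the tRNA class of both deposited tables and summed by anticodon. The names matched 49 of the 438 tRNA genes and 49 of all 70584 features, and they fell under 8 anticodons. Small RNA was sequenced from sperm of the cauda epididymis, where mature sperm are stored, of adult C57BL/6 mice. The 2 groups were an extra cross to wildtype and the original cross. Each held 2 mice, and every mouse gave 1 library. By its title the study sets sperm in which a LoxP site, the sequence that Cre recombinase recognises, can be silenced epigenetically against sperm in which it cannot. The labels do not tie susceptibility to either cross, and they name no allele, promoter or Cre line for either. Each replicate number has its own table with 1 library of each cross, so every comparison of crosses is also given within a table.

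A tRNA carries an amino acid to the ribosome and pairs its anticodon with a codon of the messenger RNA. Elongator methionine tRNA adds methionine inside a growing protein, whereas a separate initiator tRNA starts it. Several genes encode most tRNAs, and genes whose names share the family number have the same mature sequence. The tRNAs Ile-AAT and Val-AAC are known to have their wobble adenosine converted to inosine, and mature tRNA-Phe carries a bulky modified base beside its anticodon. Mature sperm carry many tRNA fragments, mostly from the 5′ side of glycine, glutamate and valine tRNAs, and such fragments are also passed to sperm by vesicles of the epididymis.

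Values are RPM, for which the authors scaled the reads of each library to a common depth. The value of 1 read, taken from the commonest microRNA value of a library, puts 1557766 and 4205692 reads behind the scale of extra-cross replicates 1 and 2, and 632859 and 1782506 reads behind original-cross replicates 1 and 2. The whole tRNA class summed to 173022 and 291164 RPM in the extra cross and to 189637 and 306950 RPM in the original cross. MicroRNA markers of spermatogenic cells were present in all libraries, with mir-34c at 1703 and 1132 RPM in the extra cross and 1828 and 707 RPM in the original cross. Over the libraries mir-34b had 40.4 to 108 RPM and mir-449a 0.561 to 1.93 RPM. In both original-cross libraries mir-449a stood at the value of 1 read. The 7 sperm transcripts looked up, among them the protamines Prm1 and Prm2, stayed at or below 2.24 RPM in these size-selected libraries. Transcripts have a different scale in 1 library, so their values are not compared between libraries. MicroRNAs of other cells were present too. Those of epididymal epithelium (5 of 5 above 0 in every library) summed to 10408 and 5315 RPM in the extra cross and 4394 and 2055 RPM in the original cross. Those of smooth muscle and stroma (6 of 6) summed to 3382 and 5078 RPM against 8547 and 6264 RPM, and those of blood (7 of 8, with no value for mir-142) to 10703 and 918 RPM against 6101 and 1048 RPM. Their part in the results below was not tested. In such bulk libraries fewer cells of a type and less RNA per cell cannot be told apart.

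The 49 genes together gave 11127 and 18776 RPM in the extra cross and 11867 and 17999 RPM in the original cross. Of all tRNA values this was 6.43% and 6.45% in the extra cross and 6.26% and 5.86% in the original cross. The total was thus nearly the same share of the class in all 4 libraries. Most of it came from tRNA-Val-AAC, which made up 87.6% and 70.9% of the members' sum in the extra cross and 88.3% and 78.1% in the original cross. Its sum was 9743 and 13310.2 RPM in the extra cross and 10473 and 14057 RPM in the original cross. It ranked 5 by level among the 47 tRNA anticodons with a mean of at least 10 RPM. Even its lowest library lay above the highest library of every other anticodon described here.

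**Figure D1:**
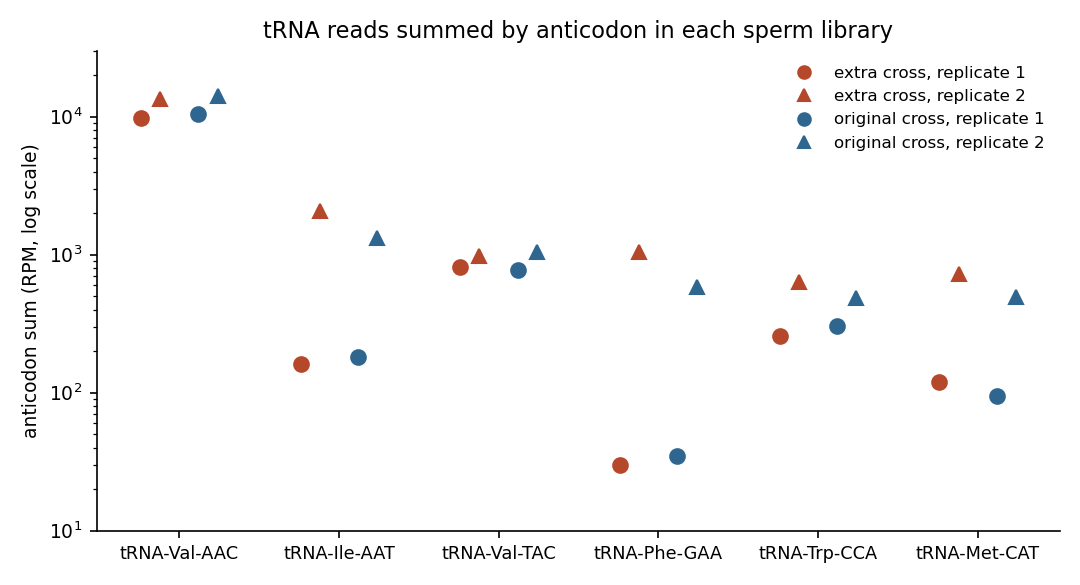
RPM summed by anticodon (log scale) for the 6 anticodons with a mean of at least 10 RPM, 1 point per library, with circles for replicate 1 and triangles for replicate 2. tRNA-Val-AAC lies above the others in all 4 libraries, and tRNA-Ile-AAT, tRNA-Phe-GAA and tRNA-Met-CAT are far higher in both replicate 2 libraries than in both replicate 1 libraries.

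The second valine tRNA, tRNA-Val-TAC, had 813 and 983 RPM in the extra cross and 777 and 1052 RPM in the original cross. The isoleucine tRNA with anticodon AAT had 161 and 2086 RPM in the extra cross and 181 and 1323 RPM in the original cross. The tryptophan tRNA, tRNA-Trp-CCA, had 259 and 632 RPM in the extra cross and 302 and 487 RPM in the original cross. In every one of these the ranges of the crosses overlapped, because the libraries of replicate 2 were higher. The elongator methionine tRNA, tRNA-Met-CAT, had 120.04 and 721 RPM in the extra cross and 94.8 and 496 RPM in the original cross. The phenylalanine tRNA, tRNA-Phe-GAA, had 30.1 and 1042 RPM in the extra cross and 34.8 and 583 RPM in the original cross. It was thus the lowest of the 6 in both replicate 1 libraries and lay above tRNA-Met-CAT and tRNA-Trp-CCA in both replicate 2 libraries.

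The order below tRNA-Val-AAC therefore depended on the table. In both replicate 1 libraries it ran tRNA-Val-TAC, tRNA-Trp-CCA, tRNA-Ile-AAT, tRNA-Met-CAT and tRNA-Phe-GAA. In both replicate 2 libraries tRNA-Ile-AAT came next after tRNA-Val-AAC and tRNA-Trp-CCA came last. On the mean over the 4 libraries tRNA-Ile-AAT (938 RPM) and tRNA-Val-TAC (906 RPM) were neighbours, as were tRNA-Phe-GAA (422 RPM), tRNA-Trp-CCA (420 RPM) and tRNA-Met-CAT (358 RPM). None of these neighbours differed by more than the spread between libraries. Divided by the median length of the annotated genes, 72 to 74 bases for these 6, only tRNA-Phe-GAA and tRNA-Trp-CCA changed places. The remaining isoleucine tRNAs were rare, at no more than 2.62 RPM. tRNA-Ile-GAT, 1 gene, had 1.60 and 0.434 RPM in the extra cross and 1.98 and 0.561 RPM in the original cross. tRNA-Ile-TAT, 2 genes of a tRNA known to carry an intron, had 0 and 2.62 RPM in the extra cross and 1.58 and 0.561 RPM in the original cross. Of its genes tRNA-Ile-TAT-2-3 had 0 and 0.951 RPM in the extra cross and 1.58 and 0.561 RPM in the original cross, and tRNA-Ile-TAT-1-1, listed in the table of replicate 2 only, had 1.66 RPM in the extra cross and 0 in the original cross.

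RefSeq places 58 genes with these anticodons on GRCm38, the assembly also called mm10, which is the build the submitters name. Of these 28 lie on chromosome 13 between 21161405 and 23530419, among them 5 of the 8 genes of Val-AAC, 7 of the 15 of Ile-AAT and 11 of the 16 of methionine anticodon CAT. The RefSeq symbols of methionine tRNA do not separate elongator from initiator genes, and RefSeq names are not paired with the gene names of the deposited tables. Of the tryptophan genes 4 of 8 lie on chromosome 11, and of the Val-TAC genes 2 of 3 lie on chromosome 19 and 1 on chromosome X. The 7 genes of Phe-GAA are spread over 5 chromosomes.

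The comparison between the crosses asked which small RNAs differ in sperm after the additional cross. In the table of replicate 2 the tRNAs for phenylalanine, isoleucine, methionine and tryptophan were higher in the extra cross, and in the table of replicate 1 only methionine was. For tRNA-Phe-GAA the extra cross over the original cross was 0.866-fold in replicate 1 and 1.79-fold in replicate 2. For tRNA-Ile-AAT it was 0.887-fold and 1.58-fold. For tRNA-Trp-CCA it was 0.857-fold and 1.30-fold, so these 3 were below 1 in replicate 1 and above 1 in replicate 2. Across the 47 tRNA anticodons 14 (29.8%) showed that order. tRNA-Met-CAT was above 1 in either table, at 1.27-fold and 1.45-fold, as were 6 (12.8%) of the 47. tRNA-Val-AAC was lower in both, at 0.930-fold and 0.947-fold, as were 20 (42.6%) of the 47, and tRNA-Val-TAC was 1.05-fold and 0.934-fold.

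Replicate 1 held few reads for some of these sums, which limits what that table can show. The sum of tRNA-Phe-GAA rested on 46.9 reads in the extra cross and 22.0 reads in the original cross, and the 95% exact binomial interval of its fold was 0.513 to 1.51. For tRNA-Met-CAT the interval was 0.942 to 1.72. For tRNA-Ile-AAT it was 0.705 to 1.11 and for tRNA-Trp-CCA 0.720 to 1.02, so none of the 4 was separated from 1 by counting error in replicate 1. In replicate 2, with 1039 to 4381 reads a library, the interval for tRNA-Phe-GAA was 1.67 to 1.91, and for tRNA-Ile-AAT, tRNA-Met-CAT and tRNA-Trp-CCA it was 1.51 to 1.65, 1.35 to 1.57 and 1.20 to 1.40. For tRNA-Val-AAC the interval was 0.904 to 0.958 in replicate 1 and 0.933 to 0.961 in replicate 2, below 1 in both, and the class as a whole stood at 0.912-fold and 0.949-fold. These intervals cover counting error between 2 libraries only, with reads rounded to whole numbers, and say nothing of the spread between mice.

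**Figure D2:**
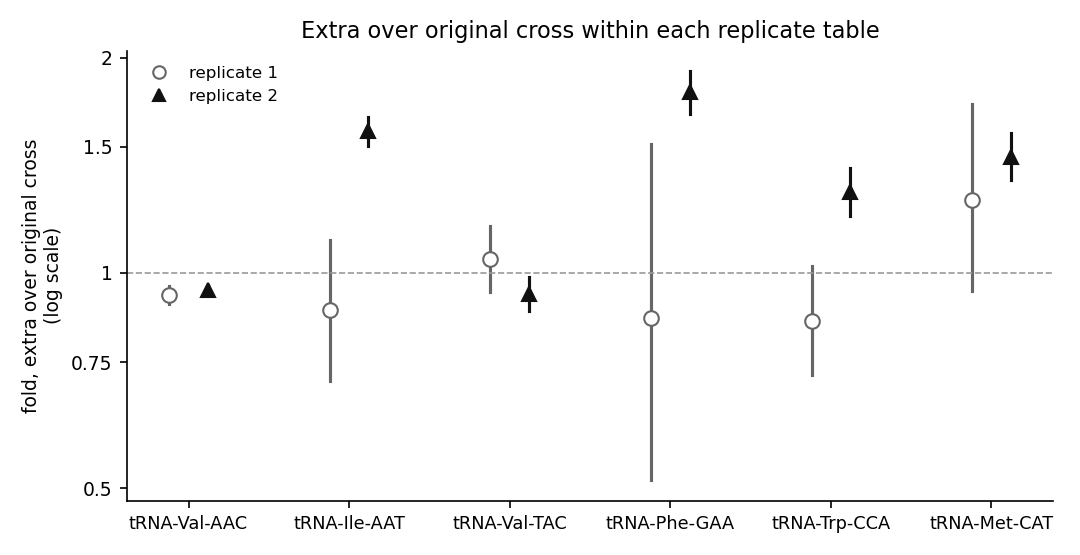
Fold of the extra over the original cross (log scale) for 6 anticodon sums, within the table of replicate 1 (open circles) and of replicate 2 (filled triangles), with lines for the 95% exact binomial interval of counting error. In replicate 2 tRNA-Ile-AAT, tRNA-Phe-GAA, tRNA-Trp-CCA and tRNA-Met-CAT lie between 1.30 and 1.79, while in replicate 1 the intervals of these 4 include 1.

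No anticodon sum passed the test between the crosses. With the tRNA genes summed by anticodon, limma called 0 of 501 small RNA features (0%) at the threshold of 0.05 after Benjamini-Hochberg adjustment. Without adjustment 107 (21.4%) were under 0.05. None of the 6 sums described here was among those, with unadjusted limma p from 0.697 to 0.983. The log2 fold change was largest for tRNA-Met-CAT, at 0.44 ± 1.09 (SE, limma adjusted p = 0.994). tRNA-Phe-GAA stood at 0.32 ± 1.66 and tRNA-Ile-AAT at 0.24 ± 1.34. tRNA-Trp-CCA was at 0.077 ± 0.82, tRNA-Val-TAC at -0.017 ± 0.78 and tRNA-Val-AAC at -0.091 ± 0.61, with limma adjusted p up to 0.997. The median of the 6 was 0.16, against -0.14 over all 501 features, and the difference between crosses was smaller than the SE for each. As the fit was on the cross alone, this SE also holds the difference between replicates, which ran the same way in both crosses. With the replicate as a block the limma adjusted p of the 6 ran from 0.454 to 0.981. The SD of the log2 values within a cross (n = 2) was 3.58 in the extra cross and 2.85 in the original cross for tRNA-Phe-GAA, the widest of the 6. For tRNA-Val-AAC it was 0.318 and 0.300. Under median-ratio scaling, which raised the median of all features by 0.38, all 6 were positive, and with each class scaled to its own sum all 6 were positive too. Rescaled to the sum of the small RNA classes, which lowered that median by a shift of -0.13, tRNA-Trp-CCA turned negative. With each gene as a feature of its own 0 of 760 passed (0%), 112 (14.7%) were under 0.05 without adjustment, and none of the 37 member genes over the minimum was among them.

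Summed over all 49 genes, the extra cross was 0.938-fold of the original in replicate 1 and 1.04-fold in replicate 2. The mean log2 difference was -0.016 (2-sided exact permutation test, p = 1.0). With 2 libraries against 2 the smallest p this test can give is 0.333, so it could not have passed.

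Val-AAC and elongator methionine were also set beside the tRNA of the same amino acid that was left out of the members. tRNA-Val-CAC, the more abundant valine tRNA, had 34603 and 35190.2 RPM in the extra cross and 33657 and 36503 RPM in the original cross. The ratio of tRNA-Val-AAC to it was 28.2% and 37.8% in the extra cross and 31.1% and 38.5% in the original cross. Initiator methionine tRNA had 6545 and 17603 RPM in the extra cross and 5652 and 16680 RPM in the original cross. Elongator methionine tRNA amounted to 1.83% and 4.09% of it in the extra cross and to 1.68% and 2.98% in the original cross. In either table the ratio was thus higher in the extra cross for methionine and lower for valine. For methionine in replicate 1 it was 1.09-fold, on 187 and 60 elongator reads in the extra and original cross. For valine in replicate 2 it was 0.982-fold. No counting interval was computed for these ratios. The log2 difference between the crosses was 0.29 for methionine and -0.085 for valine, and neither ratio passed (2-sided exact permutation test, p = 0.667 for each and 0.667 adjusted over these 2 tests). Here too the smallest p this test can give is 0.333, so neither ratio could have passed.

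The larger difference lay between the replicates, in both crosses. tRNA-Phe-GAA was 34.6-fold higher in replicate 2 than in replicate 1 of the extra cross and 16.8-fold higher in the original cross, with 95% counting intervals of 25.9 to 47.1 and 11.0 to 26.9. tRNA-Ile-AAT was 13.0-fold and 7.30-fold higher, and tRNA-Met-CAT 6.00-fold and 5.24-fold. These 3 were among 4 of 47 tRNA anticodons (8.51%), and of 501 small RNA features (0.798%), that were more than 5-fold higher in replicate 2 in both crosses. The other, named after its values were seen, was tRNA-Asn-GTT, at 22.0-fold and 15.5-fold. By the mean shift on the log2 scale tRNA-Phe-GAA ranked 1, tRNA-Ile-AAT 3 and tRNA-Met-CAT 4 of the 47. Close behind tRNA-Met-CAT (2.48) came tRNA-Asp-GTC (2.43), at 6.97-fold and 4.15-fold, so the line of 5-fold separates near neighbours. The whole class was 1.68-fold higher in the extra cross and 1.62-fold higher in the original cross. tRNA-Trp-CCA was 2.44-fold higher in the extra cross, above the class, and 1.61-fold higher in the original cross, close to it. The valine tRNAs were below the class, with tRNA-Val-AAC at 1.37-fold and 1.34-fold and tRNA-Val-TAC at 1.21-fold and 1.35-fold. The shift of elongator methionine tRNA was larger than the 2.69-fold and 2.95-fold of the initiator.

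**Figure D3:**
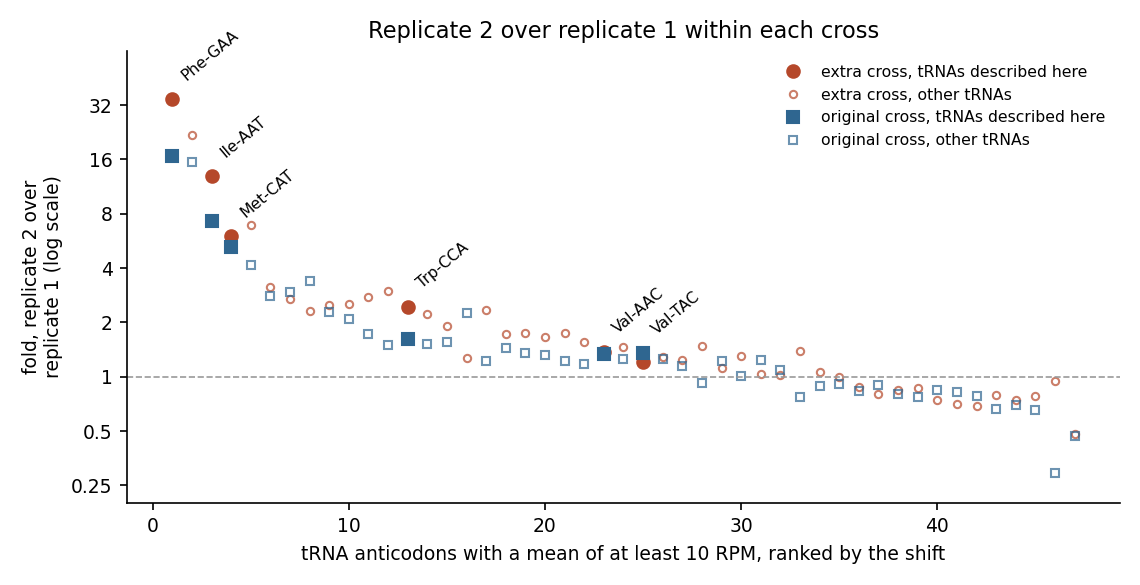
Fold of replicate 2 over replicate 1 (log scale) in the extra cross (circles) and the original cross (squares) for the 47 tRNA anticodons with a mean of at least 10 RPM, ranked by their mean shift. tRNA-Phe-GAA, tRNA-Ile-AAT and tRNA-Met-CAT hold ranks 1, 3 and 4, tRNA-Trp-CCA holds rank 13, and the valine tRNAs lie near the middle.

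As a share of all tRNA values, tRNA-Phe-GAA held 0.358% and 0.190% in the extra and original cross of replicate 2, against 0.0174% and 0.0183% in the extra and original cross of replicate 1. tRNA-Ile-AAT held 0.716% and 0.431% against 0.0929% and 0.0956%, so these shifts exceeded that of the class. The replicates were compared without a test, and as each library is 1 mouse in 1 table, differences between mice and between tables cannot be told apart. The blood microRNAs moved the other way, at 918 and 1048 RPM in the extra and original cross of replicate 2 and 10703 and 6101 RPM in the extra and original cross of replicate 1. So did those of epididymal epithelium, at 5315 and 2055 RPM in replicate 2 and 10408 and 4394 RPM in replicate 1. Those of spermatogenic cells were also lower, at 1204 and 748 RPM in replicate 2 and 1813 and 1918 RPM in replicate 1. All microRNAs together did too, at 140437 and 117322 RPM in replicate 2 and 441544 and 275809 RPM in replicate 1. Those of smooth muscle and stroma were at 5078 and 6264 RPM in replicate 2 and 3382 and 8547 RPM in replicate 1. The part of these in the shift of the tRNAs was not tested.

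Within an anticodon the gene families did not all share the shift. Within the 8 anticodons the 49 genes gave 30 distinct sets of values, as genes of the same family held equal values. Of these 30 sets 18, covering 37 genes, had a mean of at least 10 RPM. The lowest of the 18 was tRNA-Trp-CCA-6-1, with a mean of 16.5 RPM, and the highest below the minimum was tRNA-Phe-GAA-3-1, with a mean of 8.39 RPM.

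For isoleucine, each of the 8 copies of tRNA-Ile-AAT-1 had 16.3 and 231 RPM in the extra cross and 18.5 and 146 RPM in the original cross. Together they held from 80.9% to 88.5% of the sum. The single gene tRNA-Ile-AAT-3-1 had 11.1 and 228 RPM in the extra cross and 9.78 and 143 RPM in the original cross. Both families were far higher in replicate 2. The gene tRNA-Ile-AAT-2-1 had 8.98 and 5.87 RPM in the extra cross and 10.7 and 6.87 RPM in the original cross. Its values were lower in replicate 2, but on few reads. The 95% counting interval of replicate 2 over replicate 1 was 0.331 to 1.38 in the extra cross and 0.221 to 1.82 in the original cross. The values of tRNA-Ile-AAT-4-1 equalled those of tRNA-Ile-AAT-2-1 except in original-cross replicate 2, where it had 6.31 RPM. These genes therefore do not count as separate observations. tRNA-Ile-AAT-4-1 and tRNA-Ile-AAT-5-1 were also lower in replicate 2 in both crosses, with counting intervals that included 1. The values of tRNA-Ile-AAT-5-1 equalled those of tRNA-Ile-GAT-1-1 in all 4 libraries, so their reads cannot be told apart.

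Phenylalanine tRNA came mostly from the 5 copies of tRNA-Phe-GAA-1, each at 4.91 and 203 RPM in the extra cross and 6.56 and 115 RPM in the original cross. They held 81.5% and 97.5% of the sum in the extra cross and 94.4% and 98.4% in the original cross. The gene tRNA-Phe-GAA-3-1 had 3.69 and 21.5 RPM in the extra cross and 0.978 and 7.38 RPM in the original cross. The extra cross was thus above the original cross, by 3.77-fold and 2.91-fold, but on less than 1 read in original-cross replicate 1. The gene tRNA-Phe-GAA-2-1 had 1.87 and 4.34 RPM in the extra cross and 0.978 and 2.05 RPM in the original cross.

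In elongator methionine tRNA no family dominated. Each of the 2 copies of tRNA-Met-CAT-1 had 25.5 and 159 RPM in the extra cross and 22.3 and 106 RPM in the original cross. Each of the 2 copies of tRNA-Met-CAT-2 had 18.3 and 139 RPM in the extra cross and 13.5 and 111 RPM in the original cross. The gene tRNA-Met-CAT-3-1 had 11.04 and 114 RPM in the extra cross and 8.81 and 55.7 RPM in the original cross. In these 3 families the extra cross was above the original cross in either table, and replicate 2 was far above replicate 1. Of the 9 methionine genes 8 had the extra cross above the original cross in either table, against 88 of all 438 tRNA genes (20.1%), and the exception was tRNA-Met-CAT-7-1, which stayed below 0.317 RPM. The 9 genes include copies and do not count as independent, and 6 of their 7 distinct sets of values had that order. In replicate 1 the 95% counting interval of each of these 6 included 1. It was 0.746 to 1.85 for tRNA-Met-CAT-1, the most abundant. The genes tRNA-Met-CAT-4-1, tRNA-Met-CAT-5-1 and tRNA-Met-CAT-6-1, at 1.67 to 7.62 RPM, were lower in replicate 2 than in replicate 1 in both crosses, as was tRNA-Met-CAT-7-1. These differences rested on few reads, and for the first 3 genes the 95% counting intervals included 1 in both crosses. For tRNA-Met-CAT-4-1 in the original cross the interval was 0.0476 to 2.65, and tRNA-Met-CAT-7-1 had less than 1 read in every library.

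**Figure D4:**
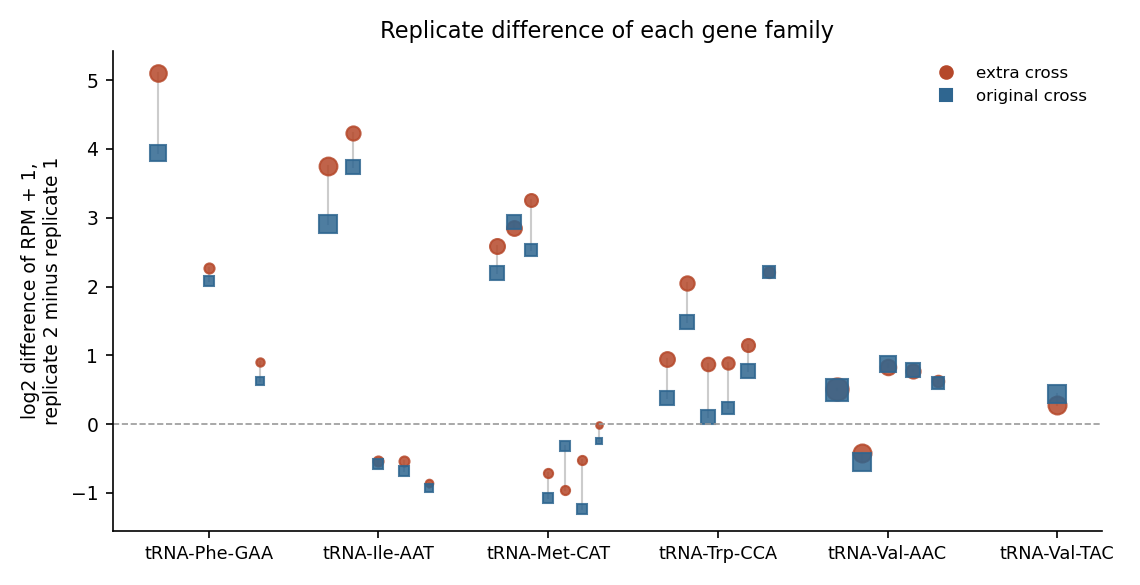
Difference of log2(RPM + 1), replicate 2 minus replicate 1, in the extra cross (circles) and the original cross (squares) for each gene family with its own values. Larger symbols mark higher summed levels. In tRNA-Ile-AAT and tRNA-Met-CAT the abundant families lie above 2 and the rare families, which rest on few reads, lie below 0.

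Tryptophan tRNA was spread over 6 families that were all higher in replicate 2 in both crosses. Among the 47 anticodon sums of the class 31 were so too. In the original cross the 95% counting interval of replicate 2 over replicate 1 included 1 for tRNA-Trp-CCA-3 (0.749 to 1.60) and tRNA-Trp-CCA-1-1 (0.701 to 2.04). The gene tRNA-Trp-CCA-2-1 had 102 and 198 RPM in the extra cross and 119.9 and 156 RPM in the original cross. The gene tRNA-Trp-CCA-5-1 had 44.5 and 188 RPM in the extra cross and 51.9 and 147 RPM in the original cross. Its share of the sum was 17.2% and 29.8% in the extra cross and 17.2% and 30.3% in the original cross, so the make-up differed between the replicates and was nearly the same in both crosses. Each of the 2 copies of tRNA-Trp-CCA-3 had 24.3 and 45.5 RPM in the extra cross and 31.0 and 33.4 RPM in the original cross. In replicate 2 all 6 families were higher in the extra cross, and in replicate 1 only 2 were. Of the 47 tRNA anticodons, counted as sums and not as families, 20 were higher in the extra cross in replicate 2 and 13 in replicate 1. The tryptophan families held fractions of reads while their sum was whole reads in every library, so the 6 do not count as independent. The 95% counting intervals of the 2 families in replicate 1, tRNA-Trp-CCA-4 and tRNA-Trp-CCA-6-1, were 0.621 to 1.82 and 0.349 to 7.66. In replicate 2 that of tRNA-Trp-CCA-1-1 was 0.867 to 1.56.

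Of the valine tRNAs, each of the 2 copies of tRNA-Val-AAC-1 had 4245 and 6072 RPM in the extra cross and 4562 and 6428 RPM in the original cross. They made up 87.1% and 91.2% of the Val-AAC sum in the extra cross and 87.1% and 91.5% in the original cross. The gene tRNA-Val-AAC-5-1 had 1027 and 769 RPM in the extra cross and 1097 and 751 RPM in the original cross. Alone among the 5 Val-AAC families it was lower in replicate 2 in both crosses, at 0.749-fold and 0.684-fold of replicate 1. Each of the 2 copies of tRNA-Val-AAC-2 had 71.6 and 128 RPM in the extra cross and 79.5 and 147 RPM in the original cross. The 3 copies of tRNA-Val-TAC-1 were the whole of their sum, each at 271 and 328 RPM in the extra cross and 259 and 351 RPM in the original cross.

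**Figure D5:**
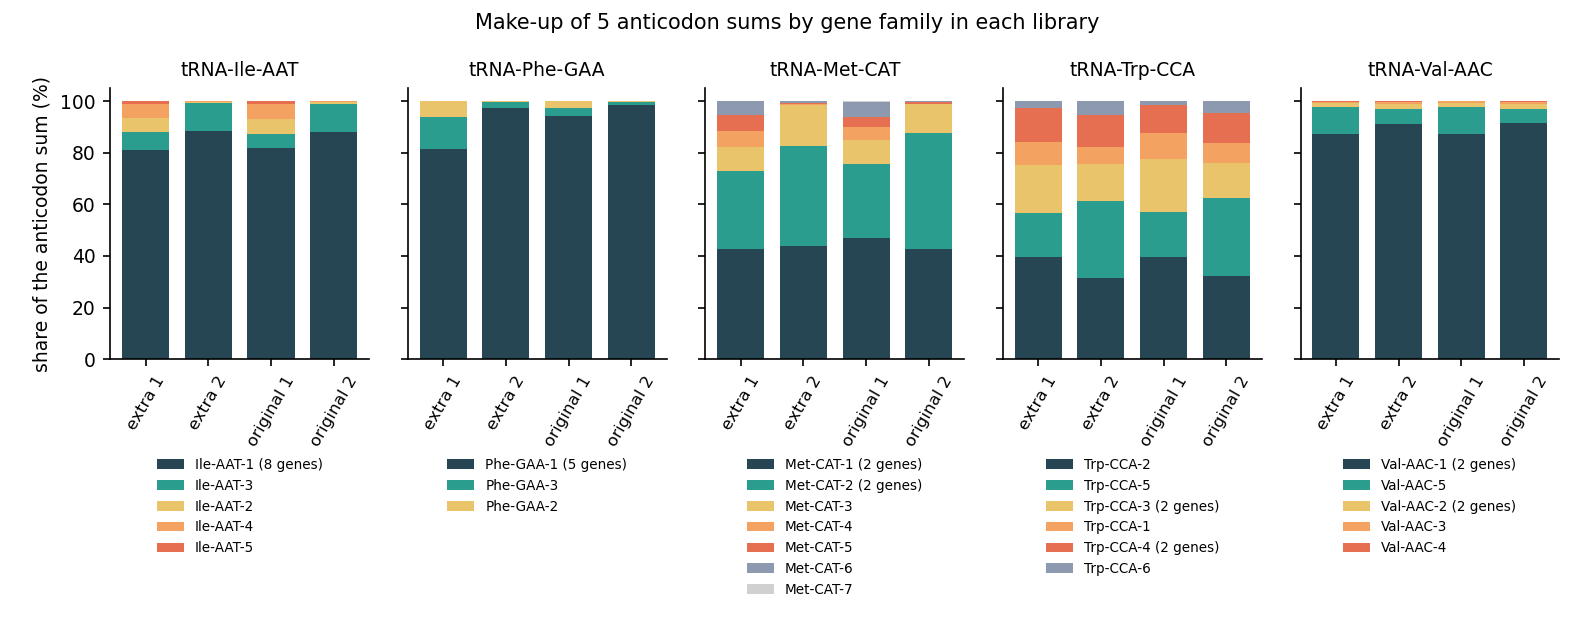
Share of 5 anticodon sums (%) held by each gene family, with copies stacked together, in extra-cross replicates 1 and 2 and original-cross replicates 1 and 2. In tRNA-Trp-CCA and tRNA-Val-AAC the bars of the same replicate number are nearly equal, and tRNA-Trp-CCA-5 holds 17.2% in both replicate 1 libraries and 29.8% and 30.3% in the replicate 2 libraries of the extra and original cross.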

How the data were processed

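The authors deposited RPM values in 2 tables, 1 per replicate number, with 1 column per cross, per the file headers. Per the submitters' processing notes CASAVA 1.8.2, Bowtie 1.1.2 and mm10 were used, with no role given; trimming, annotation and the handling of reads with several matches were not given in the sources used here. A gene listed in 1 table only (1 member) was given 0 in the other. RefSeq transcripts were left out of the fits because of a different scale in 1 library. Of values up to 20 reads 28.6% to 36.3% were whole within 0.02 reads, so no count model was run. Sums came closer to whole reads: 16 of the 24 member sums were whole. Those of tRNA-Val-TAC, tRNA-Trp-CCA and tRNA-Met-CAT were whole in every library, but that of tRNA-Val-AAC only in original-cross replicate 1.

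Values were log2(RPM + 1) with a minimum mean of 10 RPM, fitted in limma 3.58.1 (R 4.3.3) on the cross alone, with the prior variance following the mean. The fit was run on simulated data with an SD of 0.4 on the log2 scale and no replicate difference. Within a cross the SD was 3.58 and 2.85 for tRNA-Phe-GAA and 2.61 and 2.02 for tRNA-Ile-AAT. The simulation therefore does not tell what change could be found in such sums. Fold changes on this scale understate those of low features. Tables used Python 3.11.15, pandas 2.3.3, numpy 2.4.6 and SciPy 1.17.1, and plots matplotlib 3.10.9. Alternatives covered pseudocount, minimum, scaling, variance trend, replicate block, identical genes and each library left out. All anticodon sums, and the 3 most abundant sets of values per anticodon, are named, with the values beside the minimum; other genes named were chosen after their values were seen. The members and lists were chosen with earlier results of these data known.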

Additional observations from a re-analysis of the deposited data

How the results depend on the processing

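No sum or gene described here passed limma under any alternative run, including the replicate block. The values of the sums changed sign only with scaling or with a library left out. Under median-ratio scaling tRNA-Val-AAC was at 0.30, tRNA-Val-TAC at 0.37 and the sum of all members at 0.38. With each class scaled to its own sum they were at 0.013, 0.087 and 0.088, and 3 of the 6 sums, not 6, were higher in replicate 2 in both crosses. Before any rescaling 31 of the 47 tRNA anticodons had that order, and their share after this scaling was not counted. Rescaled to the sum of the 5 small RNA classes tRNA-Trp-CCA was at -0.058. When 1 library was left out the tables no longer balanced between the crosses, and tRNA-Phe-GAA ran from -2.22 to 2.85, tRNA-Ile-AAT from -1.60 to 2.09, tRNA-Met-CAT from -0.85 to 1.72, tRNA-Trp-CCA from -0.57 to 0.72, tRNA-Val-AAC from -0.32 to 0.13, tRNA-Val-TAC from -0.23 to 0.20, the sum of all members from -0.39 to 0.36, the methionine ratio from -0.28 to 0.87 and the valine ratio from -0.30 to 0.13. Here the lone library is assumed to vary like the other group.

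Over all features with tRNA by anticodon, 0 passed in the fit reported, 62 under median-ratio scaling, 97 rescaled to the 5 classes, 145 with the replicate block and 0 to 62 with a library left out, the 62 without original-cross replicate 2. With tRNA by gene the replicate block gave 171 against 0. No label says that a number pairs libraries. The deviations of same-numbered libraries correlated at 0.73 over the 501 features, and the block's fit has 1 residual degree of freedom. The causes were not tested. The library with the fewest reads was original-cross replicate 1, with 1.58 RPM for each.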
